A study of Mus musculus with 10 samples.

Results

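The 8 genes named here were picked from earlier results of these data for a higher level in Pcbp1 knockout than in wild-type B cells at each of 2 stages. They are Rundc3a, Dyrk4, Ffar2, Klrb1f, Muc3a, Jhy, Gm15459 and Gm19585, 8 of the 55492 gene symbols in the count table, and 8 of 8 passed the filter on low counts that left 21010 genes to test. The values that chose them are the CPM (counts scaled to the size of each library) of the knockout and control libraries, so the knockout-against-control values of these genes are a description and carry no test. In the libraries the label holds for 6 of the 8. Jhy and Gm15459 were higher in knockout cells at the naive stage only.

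RNA-seq was made from splenic B cells of mice with floxed Pcbp1 alleles (fl/fl) and Mb1-Cre (KO), and from mice labelled WT. Mb1-Cre is a Cre recombinase inserted in the Cd79a locus, which is active from early B cell development onward. Naive B cells were taken on day 0 (2 WT and 2 KO libraries) and received no treatment. Induced germinal center B cells (iGCB) were splenic B cells cultured to day 4 in the 40-LB system, on fibroblast feeders that display CD40 ligand and secrete BAFF (3 WT and 3 KO libraries). Sex, age and strain are not in the labels, nor is whether the mice called WT carried floxed alleles or Cre. Because the labels also do not tie libraries to separate animals, a p-value here reflects the spread among libraries, which may be technical in the iGCB groups. In each naive group the 2 libraries differ in sex, so they are not from the same animal and their spread includes sex. By Xist and Y-linked counts, naive WT 1 and naive KO 1 are female and the remaining 8 libraries are male. Cd79a was at 1387 and 1173 CPM in naive WT and at 432 and 414 in naive KO libraries. In iGCB cells it was at 773 to 822 CPM in WT and 342 to 438 in KO libraries. The part of Cre or of the Cd79a level in the KO against WT values was not tested, and it cannot be told apart from the loss of Pcbp1.

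PCBP1 is an RNA-binding protein with KH domains that prefers cytosine-rich stretches. It takes part in splicing, RNA stability and translation, and it also carries iron to client proteins. Loss of such a protein can raise a transcript directly or through other genes, and RNA levels do not separate these routes. The 8 genes share no protein family. They encode a small-GTPase partner (Rundc3a), a kinase (Dyrk4), 2 cell-surface receptors (Ffar2 and Klrb1f), a mucin (Muc3a), a protein of ciliated epithelium (Jhy), a pseudogene transcript (Gm15459) and a long non-coding RNA (Gm19585).

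Libraries held 33400672 to 63576147 counts. Pcbp1 was at 152 and 83.9 CPM in the naive WT libraries, 4.33 and 0.448 in the naive KO libraries, 148, 327 and 326 in WT iGCB libraries, and 3.71, 1.96 and 2.59 in KO iGCB libraries, so every KO library matched its label. Its log2 fold change was -5.59 in naive cells (SE 0.82, adjusted p = 0.0561) and -6.60 in iGCB cells (SE 0.71, adjusted p = 0.00151, edgeR's quasi-likelihood test), and the first of these missed the threshold of 0.05. The B cell markers Ms4a1, Cd79b, Pax5 and Cd22 summed to 2280 to 5450 CPM over the libraries. In iGCB cells 4 of these 4 had a log2 fold change above 0, KO against WT, and in naive cells 0 did. Ms4a1 was at 567, 378 and 380 CPM in WT iGCB and 662, 775 and 723 in KO iGCB libraries, with no overlap. By edgeR's test it had 0.71 (SE 0.21, adjusted p = 0.185) and Pax5 had 0.42 (SE 0.17, adjusted p = 0.407) in iGCB cells. The germinal center and activation markers Fas, Mki67 and Mybl1 summed to 169 to 320 CPM in naive libraries and 870 to 1450 CPM in iGCB libraries. Fibroblast genes, which the feeders also express, summed to 2.31 to 13.1 CPM in naive libraries and to 292 to 435 CPM in iGCB libraries, with overlapping WT and KO ranges at each stage. T cell markers summed to 4.03 to 32.5 CPM in naive libraries and 0.263 to 1.17 CPM in iGCB libraries. Of these lists, DESeq2 called 1 fibroblast gene in naive and 1 B cell marker in iGCB cells, KO against WT, and edgeR called 0 of their 17 genes (1 in naive and 2 in iGCB cells at an unadjusted p under 0.05). Over all tested genes the unadjusted shares were 5.55% in naive and 9.76% in iGCB cells. In bulk libraries, fewer cells of a type and less RNA per cell cannot be told apart.

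Every KO library stood above every WT library for 8 of the 8 genes in naive cells, where 11.5% of all tested genes did, and for 6 of the 8 in iGCB cells, where 10.2% did. The same 6 genes did so at both stages, a pattern held by 2.14% of all tested genes, and by 0.638% when a log2 fold change above 1 was also asked at both. Since the genes were picked for this pattern, nothing is read from these counts. The median log2 fold change of the 8 genes was 2.24 in naive cells, and that of 7 genes (without Jhy, which has no fold in iGCB cells) was 2.26 in iGCB cells. Over all tested genes the medians were -0.05 and 0.00.

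**Figure D1:**
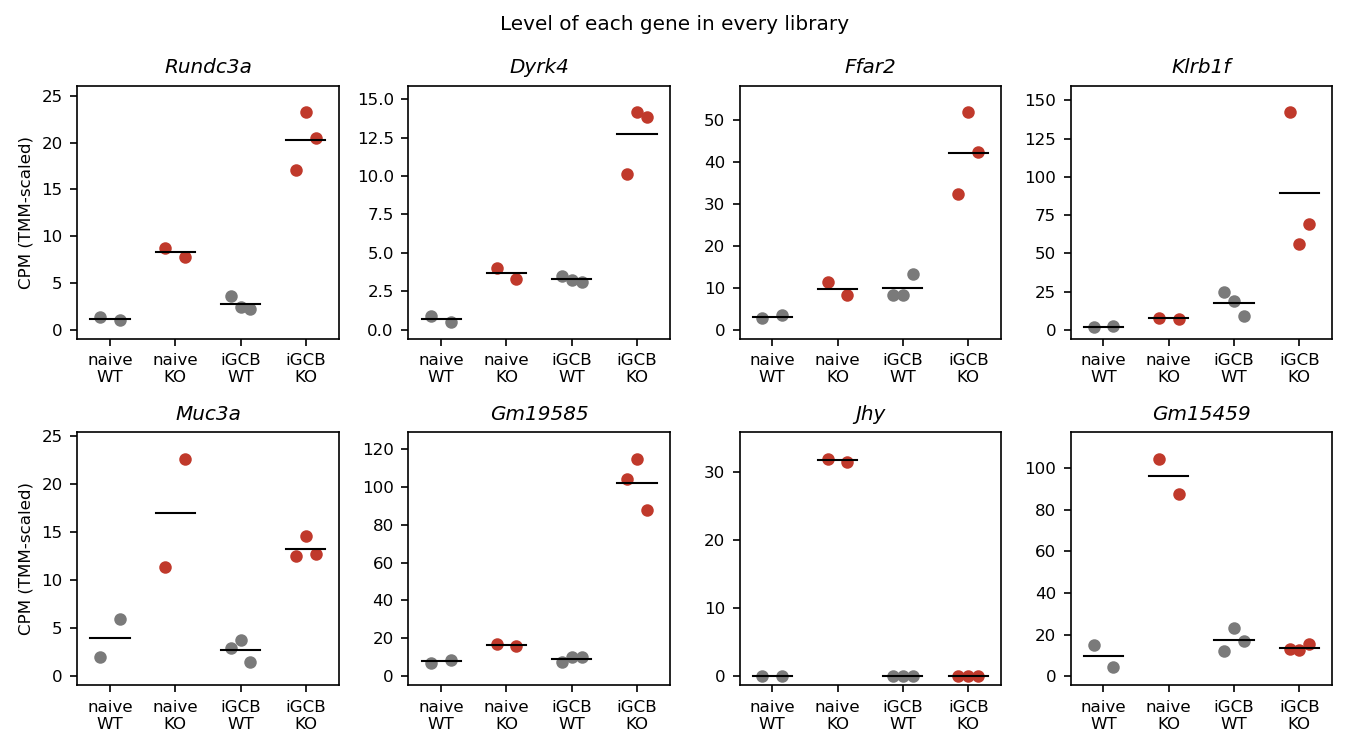
Level of each gene in every library, in CPM scaled by TMM factors on linear axes that differ between panels. Points are libraries (grey WT, red KO; 2 a group for naive, 3 a group for iGCB) and black lines are group means. The red points lie above the grey points at both stages for 6 genes, while Jhy and Gm15459 are high only in naive KO cells.

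Rundc3a encodes a RUN domain protein that binds the small GTPase Rap2 and is known mainly from neurons. It was at 1.33 and 1.03 CPM in the naive WT libraries, 8.78 and 7.75 in the naive KO libraries, 3.59, 2.45 and 2.24 in WT iGCB libraries, and 17.1, 23.3 and 20.5 in KO iGCB libraries. The groups did not overlap at either stage, and naive KO libraries stood above iGCB WT libraries too. The log2 fold change, KO against WT, was 2.80 (SE 0.34) in naive and 2.88 (SE 0.28) in iGCB cells, a difference of 0.08 (SE 0.43) between stages. The female and the male naive pair gave log2 ratios of 2.72 and 2.91. Of these genes, Rundc3a had the KO effect that differed least between the stages and between the naive pairs, although both are differences within the values that chose it.

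Dyrk4 encodes a dual-specificity kinase of the DYRK family that is best known from testis. Its level was 0.878 and 0.504 CPM in the naive WT libraries, 4.04 and 3.32 in the naive KO libraries, 3.50, 3.23 and 3.08 in WT iGCB libraries, and 10.1, 14.2 and 13.9 in KO iGCB libraries. KO libraries were above WT libraries at each stage, and naive KO libraries lay near the iGCB WT range. Fitted log2 fold changes were 2.39 (SE 0.40) in naive and 1.96 (SE 0.31) in iGCB cells. The naive pairs gave log2 ratios of 2.20 (female) and 2.72 (male).

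Ffar2 encodes a G protein-coupled receptor for short-chain fatty acids such as acetate, found on neutrophils and other leukocytes. It was at 2.77 and 3.53 CPM in the naive WT libraries, 11.4 and 8.29 in the naive KO libraries, 8.41, 8.38 and 13.3 in WT iGCB libraries, and 32.5, 52.0 and 42.3 in KO iGCB libraries. The lowest iGCB KO library was above the highest iGCB WT library. The log2 fold change was 1.65 (SE 0.33) in naive and 2.07 (SE 0.26) in iGCB cells. The female naive pair gave a log2 ratio of 2.04 and the male pair 1.23.

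Klrb1f encodes a C-type lectin-like receptor of the NKR-P1 group, whose known ligands are Clec2 proteins. Its level was 1.59 and 2.42 CPM in the naive WT libraries, 7.98 and 6.90 in the naive KO libraries, 24.7, 18.7 and 9.23 in WT iGCB libraries, and 142, 56.4 and 69.5 in KO iGCB libraries. The groups did not overlap, and iGCB KO 1 stood at more than the level of either other iGCB KO library. KO exceeded WT by a log2 fold change of 1.90 (SE 0.51) in naive and 2.35 (SE 0.40) in iGCB cells. Klrb1f overlaps the annotated loci Gm43992 and Gm44000 on the other strand, and since the strand setting of the counting is unknown, reads of overlapping exons cannot be assigned with certainty.

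Muc3a encodes a membrane mucin that is known from the intestinal epithelium. It was at 2.06 and 5.95 CPM in the naive WT libraries, 11.4 and 22.7 in the naive KO libraries, 2.98, 3.79 and 1.53 in WT iGCB libraries, and 12.5, 14.6 and 12.7 in KO iGCB libraries. KO libraries were above WT libraries at each stage, and within each naive genotype the male library was higher than the female one. The log2 fold change was 2.09 (SE 0.55) in naive and 2.26 (SE 0.45) in iGCB cells. The annotation tags this gene as lying in an error of the reference genome.

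Gm19585 is a long intergenic non-coding RNA of unknown function. It was at 7.02 and 8.80 CPM in the naive WT libraries, 17.04 and 16.2 in the naive KO libraries, 7.39, 10.3 and 10.3 in WT iGCB libraries, and 104, 115 and 87.5 in KO iGCB libraries. WT levels were alike at both stages, and iGCB KO libraries stood far above the other 3 groups. The log2 fold change was 1.07 (SE 0.22) in naive and 3.45 (SE 0.20) in iGCB cells, a difference of 2.38 (SE 0.29) between stages. Its naive value was the smallest naive KO effect of the 8 genes, and its iGCB value the highest iGCB effect.

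Jhy encodes a protein needed for motile cilia of the brain ventricles. It had 0 counts in both naive WT libraries, and 1959 and 1403 counts (31.9 and 31.4 CPM) in the naive KO libraries. In iGCB cells it had 0 counts in 2 WT libraries, 2 counts (0.0493 CPM) in WT 3 and 0 counts in the 3 KO libraries. Naive KO was thus at least 1040-fold higher than naive WT, taking 3 counts over the group (0.0303 CPM) as the limit that a count of 0 allows. Both iGCB groups were at or under that limit, so no fold is given and a higher level in iGCB KO cells was not seen. The limit covers counting error only.

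Gm15459 is a processed pseudogene with 1 exon. It was at 14.8 and 4.61 CPM in the naive WT libraries, 104 and 87.5 in the naive KO libraries, 12.1, 23.0 and 17.2 in WT iGCB libraries, and 13.3, 12.5 and 15.3 in KO iGCB libraries. Naive KO libraries stood above all others, and the iGCB groups overlapped. Its log2 fold change was 3.30 (SE 0.47) in naive and -0.35 (SE 0.36) in iGCB cells, a difference of -3.64 (SE 0.58) between stages. Gm15459 and Jhy are the genes outside the stated pattern, and Gm19585 in naive cells is the value just inside it.

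**Figure D2:**
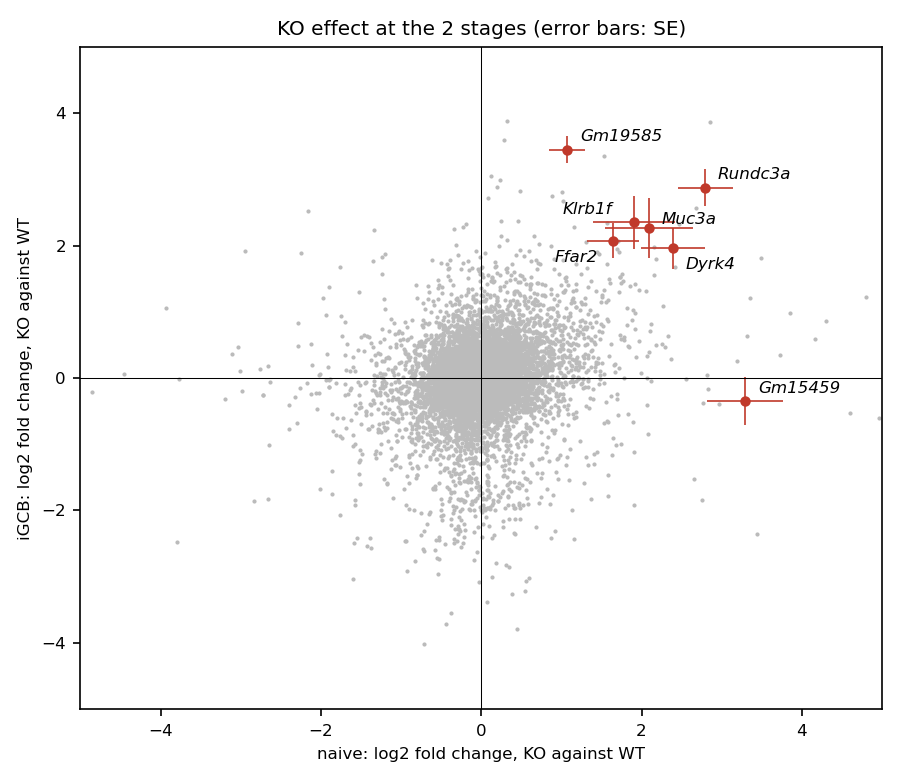
Fitted log2 fold change of KO against WT in naive cells (x axis) and in iGCB cells (y axis). Grey points are the 12552 tested genes with a mean log2 CPM of at least 0, of which 10 lie outside the axes, and red points are the named genes with SE as error bars. Jhy is not drawn because it has no fold in iGCB cells, Gm15459 lies at 3.30 and -0.35, and the other 6 named genes lie in the upper right.

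The sequence of Gm15459 bears on how its counts can be read, because it is a near copy of Hspa8, the gene of a constitutive heat shock cognate chaperone. The 1941-base Gm15459 transcript (mm10, chr5:5781615-5783555, minus strand, GENCODE M21) aligned to the Hspa8 transcript at 99.7% identity, with 5 substitutions and 0 gaps. Positions are counted from 1 at the 5′ end of Gm15459, with its base first and that of Hspa8 last. The substitutions were A114G, T414C, T549C, A1222G and T1440C. Identical runs, the stretches before the first and after the last included, were 113 to 672 bases long. The stretches around 3 of them are given with the differing base in capitals.
Gm15459 around position 114: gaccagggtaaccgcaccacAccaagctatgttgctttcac
Hspa8, same stretch: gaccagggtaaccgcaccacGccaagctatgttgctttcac
Gm15459 around position 549: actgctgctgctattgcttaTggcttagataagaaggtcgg
Hspa8, same stretch: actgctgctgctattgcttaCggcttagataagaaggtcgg
Gm15459 around position 1222: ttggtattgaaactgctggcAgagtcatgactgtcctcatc
Hspa8, same stretch: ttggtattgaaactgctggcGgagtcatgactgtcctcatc

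A read that covers none of these 5 bases fits both genes equally well. Gm8355 and Gm6210, further copies, matched Gm15459 at 98.7% and 98.6%. Hspa8 was at 2683 and 969 CPM in the naive WT libraries, 1257 and 998 in the naive KO libraries, 1295, 1696 and 1999 in WT iGCB libraries, and 1538, 1393 and 1504 in KO iGCB libraries. Its WT and KO ranges overlapped at both stages. Its log2 fold change was -0.70 (SE 0.38, adjusted p = 1) in naive and -0.17 (SE 0.31, adjusted p = 0.969) in iGCB cells.

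Gm15459 made up 0.550% and 0.474% of the summed Gm15459 and Hspa8 counts in naive WT, and 7.67% and 8.06% in naive KO. In iGCB cells the share was 0.922%, 1.34% and 0.851% for WT libraries and 0.854%, 0.889% and 1.01% for KO libraries. Only the naive KO libraries stood apart. Which of the loci the naive KO reads came from was not tested, since reads are not used here. Hspa8 also lies 84.8 kb from Jhy on chromosome 9, whose counts were likewise high in naive KO cells alone.

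**Figure D3:**
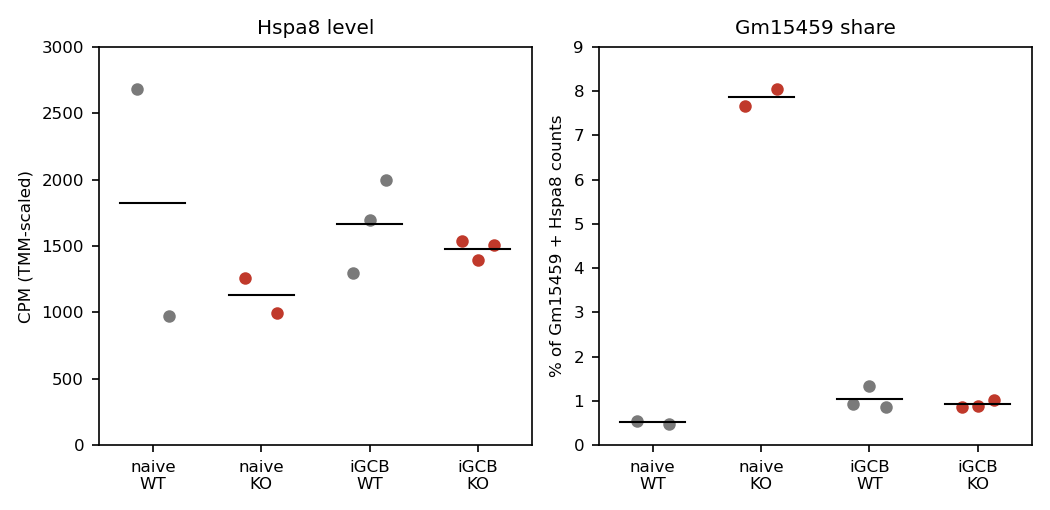
Left, Hspa8 level in CPM, and right, counts of Gm15459 as a percentage of the sum of Gm15459 and Hspa8 counts. Points are libraries (grey WT, red KO) and lines are group means. The 2 naive KO libraries are at 7.67% and 8.06%, and the other 8 libraries are between 0.474% and 1.34%.

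The change from naive to iGCB cells was not used to choose the genes and was tested within each genotype. In WT cells 4 of the 8 genes rose and 0 fell, where 24.7% of all tested genes rose and 31.7% fell (56.4% in either direction). Klrb1f rose by 3.14 on the log2 scale (SE 0.51, adjusted p = 0.000455), Dyrk4 by 2.23 (SE 0.38, adjusted p = 0.000594), Ffar2 by 1.68 (SE 0.31, adjusted p = 0.00100) and Rundc3a by 1.21 (SE 0.31, adjusted p = 0.00713), in edgeR's quasi-likelihood test. Both receptor genes, the kinase gene and Rundc3a were thus higher in cultured than in resting WT cells. Gm15459 at 0.83 (SE 0.41, adjusted p = 0.103), Gm19585 at 0.24 (SE 0.21, adjusted p = 0.335) and Muc3a at -0.53 (SE 0.49, adjusted p = 0.368) did not pass the threshold. Jhy was at or under its limit in both WT groups.

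In KO cells Klrb1f, Ffar2, Dyrk4 and Rundc3a rose from the naive to the iGCB stage. Jhy, Gm15459 and Gm19585 were left out of the test, so no share of the 8 genes is given. Over all tested genes 24.8% rose and 31.4% fell (56.2% in either direction). Klrb1f rose by 3.59 on the log2 scale (SE 0.51, adjusted p = 0.000194) and Ffar2 by 2.10 (SE 0.31, adjusted p = 0.000242). Dyrk4 rose by 1.79 (SE 0.36, adjusted p = 0.00170) and Rundc3a by 1.29 (SE 0.30, adjusted p = 0.00403). Gm15459 was lower by 2.81 (SE 0.40) in iGCB KO cells. It was high only in the naive KO libraries that served to choose it, so this is a description. Jhy, which passed the filter on low counts only through the naive KO libraries that chose it, was at 0 counts in iGCB KO, at least 1070-fold lower, and gets no test. Muc3a had -0.36 (SE 0.47, adjusted p = 0.533). The libraries of both stage comparisons also served to choose the genes by another contrast, so these tests are not independent of that choice. Gm19585, whose iGCB KO libraries stood far above the other groups, was higher there by 2.62 (SE 0.22) than in naive KO cells. Those iGCB KO libraries served to choose it, so this is a description.

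Which genes changed between stages depended on settings in 3 cases. Rundc3a in WT missed the threshold when only the WT groups were fitted (1.24, adjusted p = 0.0882). Gm15459 in WT passed it without naive WT 1 (1.92, adjusted p = 0.00116), with a term for sex (1.48, adjusted p = 0.00612) and without the filter on low counts (0.89, adjusted p = 0.00218). Muc3a passed it with the sex term, at -0.98 in WT (adjusted p = 0.0334) and -0.90 in KO (adjusted p = 0.0458), and turned positive without naive WT 2 (0.42, adjusted p = 0.530) or naive KO 2 (0.22, adjusted p = 0.783).

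Levels can be compared between genes only per length, and counts scaled by annotated exon length and library size (RPKM) are used for this. In iGCB KO cells the highest were Klrb1f at 44.2 RPKM (27.8 to 70.3, n = 3) and Gm19585 at 43.2 (37.1 to 48.6), whose ranges overlapped. Ffar2 followed at 15.2 RPKM (11.7 to 18.6), apart from its neighbours in the order. Gm15459 at 7.05 RPKM, Muc3a at 7.03 and Rundc3a at 6.89 overlapped, Dyrk4 was at 5.11 (4.08 to 5.68), just below their ranges, and Jhy was at 0. In naive KO cells the order was Gm15459 (49.4 RPKM), Jhy (9.47), Muc3a (9.02), Gm19585 (7.04), Klrb1f (3.67), Ffar2 (3.52), Rundc3a (2.81) and Dyrk4 (1.48). There Muc3a, at 6.02 to 12.0 RPKM, overlapped Jhy and Gm19585, Klrb1f overlapped Ffar2, and Ffar2 (from 2.97) overlapped Rundc3a (up to 2.99). In iGCB WT cells the highest were Gm15459 (8.97 RPKM) and Klrb1f (8.66), and the other 6 genes lay at or below the 3.95 RPKM of Gm19585. The place of Gm15459 in these orders rests on reads assigned to it, and whether they came from it or from Hspa8 was not tested.

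The genes lie on 6 chromosomes (mm10, GENCODE M21). Rundc3a is at chr11:102393403-102402555, Ffar2 at chr7:30818348-30823775, Jhy at chr9:40894849-40964118 and Gm19585 at chr17:51986415-52163976. Dyrk4 (chr6:126876020-126921839) and Klrb1f (chr6:129045901-129057464) lie 40.4 and 42.5 Mb from Pcbp1 on the same chromosome. Muc3a (chr5:137208813-137212389) shares chromosome 5 with Gm15459, and Ffar2 lies 5.9 Mb from Cd79a, the locus that carries Mb1-Cre. Sequence next to an engineered locus can stem from another strain than the rest of the genome, and the labels give no strain.

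The genes around each of the 8, taken by position as the nearest 3 tested genes on either side and any that overlap, gave 50 neighbours. Not all of them are close by. On 1 side the neighbours of Gm15459 lie 1395.8 to 2262.5 kb away and those of Gm19585 1315.3 to 1402.9 kb away, and Vwf lies 1189.3 kb from Dyrk4. In naive cells 0 of 50 passed the threshold, with 6 at an unadjusted p under 0.05 and 2 called by DESeq2. Over all tested genes edgeR called 0.0476% in naive cells (0.0143% higher, 0.0333% lower), and 5.55% had an unadjusted p under 0.05. In iGCB cells 0 of 50 rose and 1 fell, with 5 at an unadjusted p under 0.05. There 1.27% of all tested genes were called (0.343% higher, 0.923% lower) and 9.76% had an unadjusted p under 0.05.

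The neighbour that fell was Ffar1, a receptor for long-chain fatty acids that lies 33.6 kb from Ffar2. It was at 39.6, 58.0 and 55.4 CPM in the WT iGCB libraries and 25.9, 30.9 and 28.1 in the KO ones, with no overlap. Its log2 fold change was -0.85 (SE 0.17, adjusted p = 0.0359), and adjusted p ranged from 0.0208 to 0.193 when 1 library was left out, missing the threshold without any of iGCB WT 2, WT 3, KO 1, KO 2 or KO 3. In naive cells it had -0.22 (SE 0.20, adjusted p = 1). The adjacent receptor gene Ffar3, 30.6 kb from Ffar2, did not pass (1.27, SE 0.82, adjusted p = 0.705 in iGCB cells). Ffar2 and Ffar1 thus had KO effects of opposite sign in iGCB cells.

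Ubash3b, which encodes a phosphatase that restrains receptor signalling and lies 47.0 kb from Jhy, was at 13.3 and 17.9 CPM in the naive WT libraries, 39.5 and 34.0 in the naive KO libraries, 9.17, 8.19 and 6.71 in WT iGCB libraries, and 14.1, 14.9 and 14.7 in KO iGCB libraries. Its KO libraries were above its WT libraries at both stages, while Jhy was high in naive KO cells only. The log2 fold changes of 1.24 (SE 0.24, adjusted p = 0.167) and 0.86 (SE 0.20, adjusted p = 0.0687) did not pass edgeR's threshold. DESeq2 called both (adjusted p = 0.00042 and 0.00247). The long non-coding RNA 2310001H17Rik, 150.9 kb from Klrb1f, had 1.30 (SE 0.26, adjusted p = 0.176) and 0.85 (SE 0.21, adjusted p = 0.0910) in edgeR, with no overlap at either stage, and DESeq2 called it at both (adjusted p = 0.000776 and 0.00658).

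BC064078, an annotated pseudogene 37.9 kb from Klrb1f, was at 8.27 and 1.94 CPM in the naive WT libraries, 17.2 and 12.5 in the naive KO libraries, 9.69, 5.52 and 10.6 in WT iGCB libraries, and 22.8, 22.9 and 19.5 in KO iGCB libraries. Its groups did not overlap at either stage, and its log2 fold changes of 1.53 (SE 0.54, adjusted p = 0.716) and 1.34 (SE 0.44, adjusted p = 0.260) did not pass. Slc25a39, a mitochondrial carrier gene 0.4 kb from Rundc3a, had log2 fold changes of 0.29 (SE 0.31, adjusted p = 1) and 0.43 (SE 0.25, adjusted p = 0.657). Rad51ap1, a DNA repair gene 1.2 kb from Dyrk4, had -0.11 (SE 0.38, adjusted p = 1) and -0.35 (SE 0.30, adjusted p = 0.803). These 3 genes were named after their values were seen.

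**Figure D4:**
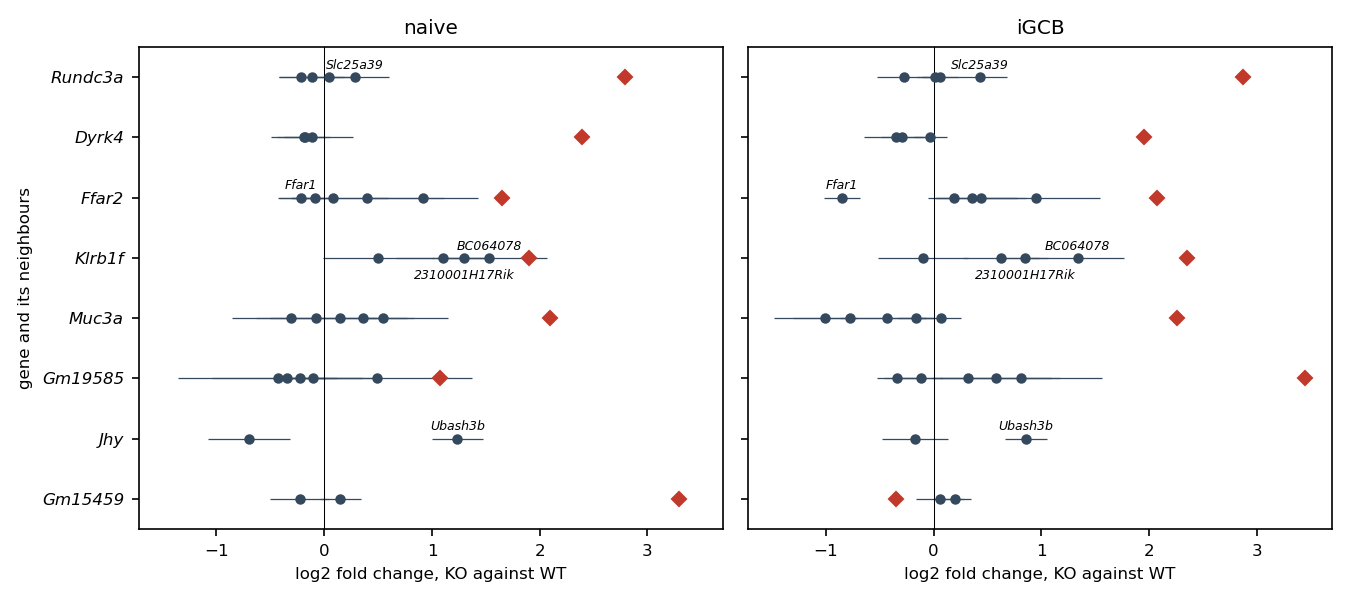
Log2 fold change of KO against WT for each named gene (red diamond) and its neighbours (dark points with SE) in naive cells, left, and iGCB cells, right. Only the 30 neighbours with a mean log2 CPM of at least 0 are drawn, and Jhy itself is left out. The drawn neighbours of Rundc3a and Dyrk4 lie near 0, and Ffar1 lies at -0.85 in iGCB cells. Ubash3b, BC064078 and 2310001H17Rik lie above 0 at both stages. The cut left out the Rundc3a neighbours Slc4a1 (-1.98, SE 0.78) and Fam171a2 (-3.21, SE 1.52), both values of naive cells.

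Gene families were given by 6 lists with 36 genes, of which 26 were tested. In these, 5 lists hold relatives of the 8 genes, and the other holds the Pcbp family, relatives of the deleted gene. In naive cells 0 of 26 passed the threshold (5 at an unadjusted p under 0.05, and 1, Pcbp4, called by DESeq2), with a median log2 fold change of -0.10 against -0.05 over all tested genes. In iGCB cells 0 rose and 1 fell (2 at an unadjusted p under 0.05), and the median was 0.03 against 0.00. The 1 was Ffar1. Over all tested genes, 5.55% in naive and 9.76% in iGCB cells had an unadjusted p under 0.05, and 0.0476% and 1.27% were called. Rundc3b, the closest relative of Rundc3a at 68.2% identity of the aligned transcript, had -1.01 (SE 0.39, adjusted p = 0.789) in naive and -0.37 (SE 0.31, adjusted p = 0.790) in iGCB cells. Dyrk2, 70.1% identical to Dyrk4 over the aligned part, had -0.10 (SE 0.19, adjusted p = 1) in naive cells.

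Among the NKR-P1 receptors and their Clec2 ligands 0 of 7 tested genes passed the threshold in either comparison, and 0 were called by DESeq2. At an unadjusted p under 0.05 were 2 in naive cells (5.55% of all tested genes) and 0 in iGCB cells (9.76% of all tested genes). Klrb1c, which encodes the NK1.1 antigen in some strains, had 3.77 (SE 1.19, adjusted p = 0.610) in naive cells at levels of at most 1.63 CPM. Clec2g, 61.2 kb from Klrb1f, had 1.10 (SE 0.43, adjusted p = 0.801) and 0.63 (SE 0.36, adjusted p = 0.642). Of the membrane mucins 0 of 3 tested passed, with Muc1 at -1.09 (SE 0.37, adjusted p = 0.296) in iGCB cells, the sign opposite to that of Muc3a. Pcbp2, the close relative of Pcbp1, had -0.22 and 0.01 (adjusted p = 1 at both stages), and Pcbp4 had 1.29 (SE 0.26, adjusted p = 0.185) in naive and 0.36 (SE 0.20, adjusted p = 0.640) in iGCB cells, the first called by DESeq2 (adjusted p = 0.00216).

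Several of the 8 genes are best known from other cells, so marker lists of those cells were read beside them, and edgeR called 0 genes of these lists in either comparison. Over all tested genes, 5.55% in naive and 9.76% in iGCB cells had an unadjusted p under 0.05, the shares to set beside the counts of each list. NK cell markers bear on Klrb1f. Their sum was 8.91 to 9.10 CPM in naive WT, 13.6 to 18.8 in naive KO, 9.67 to 17.4 in iGCB WT and 18.7 to 26.1 in iGCB KO, so it was higher in KO libraries at both stages (7 of 8 genes tested, 2 at an unadjusted p under 0.05 in each, 0 called by DESeq2). The list did not move as a whole. Its median log2 fold change was 0.32 in naive cells, where 4 of 7 tested genes were above 0, and 1.23 in iGCB cells, where 5 of 7 were. The sum includes Prf1, at 3.33 and 6.23 CPM in naive WT, 10.9 and 12.0 in naive KO, 5.63 to 9.11 in WT iGCB and 10.6 to 12.4 in KO iGCB libraries. Prf1 alone was the larger part of the naive KO sums. The defining marker Ncr1 was at 0.439 and 0.403 CPM in naive WT, 0.782 and 0.269 in naive KO, 0 in the 3 WT iGCB libraries and 0.0570, 0.0613 and 0.177 in the KO iGCB libraries (log2 fold change 5.08, SE 1.61, adjusted p = 0.273 in iGCB cells). Klrk1 was at 0 in both iGCB groups. The part of these markers in the Klrb1f values was not tested at either stage.

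Myeloid markers bear on Ffar2. Their sum was 175 to 196 CPM in naive WT, 27.2 to 235 in naive KO, 4.99 to 16.2 in iGCB WT and 13.7 to 49.6 in iGCB KO (8 of 8 genes tested, 2 and 3 at an unadjusted p under 0.05, 0 and 1 called by DESeq2). The median log2 fold change of the list was -1.26 in naive cells, where 0 of 8 were above 0, and 1.85 in iGCB cells, where 6 of 8 were. Lyz2 was at 28.7 and 42.4 CPM in the naive WT libraries, 46.1 and 6.90 in the naive KO libraries, 4.35, 12.6 and 13.7 in the WT iGCB libraries and 41.2, 11.1 and 37.5 in the KO iGCB libraries. Csf3r was at 0.0584, 0.279 and 0.247 CPM in the WT iGCB libraries and 0.513, 0.858 and 1.44 in the KO iGCB libraries, with no overlap (2.24, SE 0.81, adjusted p = 0.338), and S100a8 was at 0 in both groups. The part of these markers in the Ffar2 values was not tested.

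Epithelial markers, read beside Muc3a, summed to 5.0 to 5.95 CPM in naive WT, 3.99 to 4.37 in naive KO, 7.89 to 15.2 in iGCB WT and 4.33 to 7.54 in iGCB KO. Their sum was lower in KO libraries at both stages, and Krt20 was at 0 in every library (4 of 6 genes tested, 0 and 1 at an unadjusted p under 0.05, 0 called by DESeq2). Of the 4 tested, 1 had a log2 fold change above 0 in naive and 0 in iGCB cells. The sum includes Epcam, at 3.85 and 3.43 CPM in naive WT and 3.22 and 2.33 in naive KO libraries. In iGCB cells Epcam was at 4.98 to 11.5 CPM in WT and 3.18 to 6.92 in KO libraries, which overlap. Motile cilia markers, read beside Jhy, summed to 3.85 to 7.19 CPM in naive WT and 4.82 to 6.03 in naive KO, with overlapping ranges. Hydin was at 0 in both naive groups, and Dnah5 and Spag17 were at 0 in naive WT but not in naive KO. Dnah11 had 3.41 (SE 1.5, adjusted p = 0.869) in naive cells, at means of 0.0590 and 0.661 CPM in WT and KO (5 of 8 genes tested, 2 and 0 at an unadjusted p under 0.05, 0 called by DESeq2). Foxj1 went the other way in naive cells, at -1.93 (SE 0.86, adjusted p = 0.878). It was at 1.37 and 2.02 CPM in naive WT and 0.130 and 0.762 in naive KO libraries. Of the 5 tested, 3 were above 0 in naive cells. Neuronal markers, read beside Rundc3a, summed to 1.94 to 5.96 CPM over all groups, with overlapping ranges and Snap25 and Nefl at 0 in every library (3 of 6 tested, 0 at an unadjusted p under 0.05, 0 by DESeq2). Male germ cell markers, read beside Dyrk4, summed to 0.245 to 2.68 CPM, with Tnp1 at 0 in every library (1 of 7 tested, 0 at an unadjusted p under 0.05, 0 by DESeq2). The part of these markers in the levels of the 4 genes was not tested.

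A list of 14 genes known to vary between inbred strains was read because the labels give no strain, and 11 were tested. In naive cells 0 rose and 1 fell, with 5 of 11 at an unadjusted p under 0.05 (5.55% of all tested genes) and 1 called by DESeq2. In iGCB cells 1 rose and 1 fell, with 3 of 11 at an unadjusted p under 0.05 (9.76% of all tested genes) and 2 called by DESeq2. H2-Q7, an MHC class I gene, fell by 3.80 on the log2 scale in naive cells (SE 0.31, adjusted p = 0.00183). In iGCB cells H2-Q7 fell by 2.48 (SE 0.24, adjusted p = 0.00110) and Slamf1, a lymphocyte adhesion receptor gene, rose by 0.80 (SE 0.17, adjusted p = 0.0482). Slamf1 had adjusted p from 0.0228 to 0.236 with 1 library left out and passed only without naive WT 1 or naive WT 2. A difference of strain background between KO and WT mice and the loss of Pcbp1 cannot be told apart for these genes or for the 8.

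PCBP1 prefers cytosine-rich RNA, and the base composition of the transcripts was read after their levels were known. Cytosine made up 30.0% of the annotated Rundc3a and Muc3a transcripts, above 92.9% and 93.1% of tested genes, whose median was 24.0%. Dyrk4 (24.7%), Ffar2 (24.8%) and Jhy (24.5%) lay near that median, and Gm15459 (23.3%), Klrb1f (20.9%) and Gm19585 (20.4%) below it. CCC triplets numbered 29.8 per kb in Rundc3a and 26.6 in Muc3a, 9.41 in Klrb1f and 8.66 in Gm19585, against a median of 16.6. The 8 transcripts thus spanned 20.4% to 30.0% cytosine.

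Promoters were read for genes raised at both stages whose RefSeq start is also the GENCODE gene start (Ffar2, Dyrk4 and Klrb1f), and for Jhy, which was high only in naive KO cells, to show what each holds. The 250 bases before the start are printed from the RefSeq table of GRCm38.p6, 5′ to 3′ on the gene's strand. Capitals mark a match to 1 of 7 motifs searched on both strands, an octamer (ATTTGCAT), a TATA box (TATAAA), a CRE (TGACGTCA), AP-1 (TGANTCA), an NF-kB site, an interferon-stimulated response element (ISRE) and a CT element (CCCTCCC).
Ffar2 promoter, chr7:30823776-30824025, minus strand: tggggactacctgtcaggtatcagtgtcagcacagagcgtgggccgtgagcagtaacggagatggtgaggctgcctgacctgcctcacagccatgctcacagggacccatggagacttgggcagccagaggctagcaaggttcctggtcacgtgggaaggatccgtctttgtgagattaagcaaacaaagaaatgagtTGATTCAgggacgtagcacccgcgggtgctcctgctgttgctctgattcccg
Dyrk4 promoter, chr6:126921840-126922089, minus strand: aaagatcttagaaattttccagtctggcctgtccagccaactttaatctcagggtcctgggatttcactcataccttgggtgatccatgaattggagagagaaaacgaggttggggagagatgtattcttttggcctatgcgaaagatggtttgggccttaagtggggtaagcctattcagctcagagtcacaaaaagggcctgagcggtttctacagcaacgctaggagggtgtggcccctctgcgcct
Klrb1f promoter, chr6:129045651-129045900, plus strand: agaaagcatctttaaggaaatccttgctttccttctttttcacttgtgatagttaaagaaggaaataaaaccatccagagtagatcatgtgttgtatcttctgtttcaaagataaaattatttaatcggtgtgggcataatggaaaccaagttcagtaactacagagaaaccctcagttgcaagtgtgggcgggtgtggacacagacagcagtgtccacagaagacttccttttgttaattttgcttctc
Jhy promoter, chr9:40964119-40964368, minus strand: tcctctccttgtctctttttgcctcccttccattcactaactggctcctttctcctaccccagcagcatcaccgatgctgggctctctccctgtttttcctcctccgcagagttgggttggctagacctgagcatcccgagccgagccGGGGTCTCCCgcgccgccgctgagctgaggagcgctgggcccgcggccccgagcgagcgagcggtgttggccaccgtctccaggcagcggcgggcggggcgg

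Ffar2 held an AP-1 match that starts at -52 from the start, and 6.75% of the 32851 promoters in the table hold one. Dyrk4 and Klrb1f held none of the 7 motifs. Jhy held an NF-kB match at -102, which 17.6% of promoters do, and had 66.8% GC with 21 CpG, against medians of 52.4% and 6. Klrb1f had 38.4% GC and 2 CpG, Dyrk4 49.2% and 5, and Ffar2 56.8% and 9. The shares of all promoters with the other motifs were 1.60% (octamer), 12.4% (TATA box), 1.55% (CRE), 2.98% (ISRE) and 19.7% (CT element). Other RefSeq starts of these genes held other matches, an NF-kB site at -242 in Ffar2, and AP-1 at -203, a TATA box at -104 and a CT element at -153 in Jhy. The Gm19585 start in the table, which is not its GENCODE gene start, held none. The matches thus depend on the start chosen. A match is a description of letters and not a binding site. Since Dyrk4 and Klrb1f held none, the printed promoters of Ffar2, Dyrk4 and Klrb1f shared none of the 7 motifs. The promoters of Rundc3a and Muc3a were not read.

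The 6 genes that were higher at both stages were not alone in this. Among tested genes with a mean log2 CPM of at least 0, 350 had every KO library above every WT library at both stages, 63 of them with log2 fold changes above 1 at both. Ordered by the smaller of the 2 fold changes, Rundc3a was at rank 2, Muc3a 5, Dyrk4 7, Klrb1f 8, Ffar2 13 and Gm19585 54. The 10 highest other genes were Loxhd1, Klk8, Ogdhl, Dnhd1, Npdc1, Rnf17, Gm33370, Eid2, Naip2 and Naip5. Naip2 and Naip5, which encode sensors of bacterial proteins, had mean levels of 12.2 and 17.2 CPM in naive WT and 41.4 and 51.1 CPM in naive KO. In iGCB cells they were at 5.36 and 6.46 CPM in WT and at 16.0 and 21.3 CPM in KO. These are descriptions of genes chosen by their values.

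Likeness of pattern was measured as Pearson's r of log2 CPM over the 10 libraries after subtraction of each stage's mean, as a description in which KO and WT libraries form separate groups. Rundc3a was most like Klk8 (0.990) and Naip2 (0.989), and among the 8 genes most like Dyrk4 (0.98). Ffar2 was most like Cryl1 (0.971), Muc3a most like Slc29a4 (0.987), Dyrk4 most like Pced1a (0.988) and Klrb1f most like Gm44698 (0.953), a gene near the floor of detection. Gm19585 was most like Syn1 and Ccr6 (0.987 for both). Jhy and Gm15459 were most like each other among the 8, at 0.93, while Jhy and Gm19585 had 0.20.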

How the data were processed

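RNA-seq covered 10 libraries of mouse B cells. The authors deposited counts for each gene symbol from featureCounts on mm10, per the submitters' processing notes. Not given in the sources used here are the aligner, annotation, versions and strand setting. Among counts of 1 to 20 only 17.7 to 26.9% were odd in each library, so most counts come in steps of 2. Of 55492 symbols, 24219 were 0 in all libraries.

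Counts were filtered with filterByExpr (minimum count 10, by group), which left 21010 genes, scaled by TMM and fitted with edgeR 4.0.16 (R 4.3.3, quasi-likelihood, 4 groups, no block, 6 residual degrees of freedom). Tests were two-sided, adjusted by Benjamini-Hochberg over all genes, at 0.05. Standard errors (SE) were taken as |log2 fold change| divided by the root of the F statistic. RPKM used the exon length of GENCODE M21, where 20434 of the tested symbols matched 1 gene. Promoters of Dyrk4, Klrb1f, Ffar2, Jhy and Gm19585 were matched by symbol in the RefSeq table. The fit was tested on simulated data.

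The 8 genes and all lists were chosen with earlier results of these data known. Named genes are the 8, Pcbp1 and Pcbp2; per list and among the neighbours up to 4 past the threshold, otherwise the 2 with the smallest p; the 2 genes most like each; and the 10 highest others of the same pattern. Other genes were named after their values were seen. Results of some listed markers are not reported here. Alternatives were RLE or no scaling, DESeq2 1.42.0, no filter, only the groups compared, a replicate block, a sex term and leaving out each library.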

Additional observations from a re-analysis of the deposited data

How the results depend on the processing

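Of 442 alternative values for single genes, 405 kept their direction and side of the threshold, 20 passed it newly, 15 lost it and 2 changed sign (Muc3a, iGCB against naive, which ranged from -1.11 to 0.42 in WT and from -0.76 to 0.22 in KO with 1 library left out). With 1 library left out, the counts of the 8 genes past the threshold between stages ranged from 4 to 5 in WT. In KO they stayed at 7, with Jhy, Gm15459 and Gm19585 counted. The median KO effects ranged from 2.23 to 2.42 (naive) and from 2.04 to 2.40 (iGCB) in these fits. Counts over all genes moved most. For KO against WT in iGCB cells, 266 became 779 with DESeq2, 841 without the filter, 863 with only the groups compared, 640 with a sex term and 41 to 489 with 1 library left out. In naive cells, 10 became 167, 242, 0, 57 and 3 to 44 in the same order. The stage comparisons gave 9088 to 11898 genes in WT and 8708 to 12429 in KO with 1 library left out. Neighbours called in iGCB cells were 1, against 3 with DESeq2, 3 without the filter, 5 with only the groups compared, 5 with a sex term and 0 to 3 with 1 library left out. In naive cells they were 0, against 2 with DESeq2, 3 without the filter and 0 to 1 with 1 library left out. Family genes called were 1 in iGCB cells (3 without the filter, 0 to 1 with 1 library left out) and 0 in naive cells (1 with DESeq2, 1 without the filter). The cause of these differences was not tested.

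After removal of group means, libraries of the same number correlated at 0.60 in naive cells, and at 0.50, -0.15 and 0.01 in iGCB cells. With 2 libraries a group, both naive pairs have the same value by construction, and naive libraries of the same number also shared a sex. The labels name no pairs and the iGCB values differed, so the main fit had no block. A pairing of the naive libraries is therefore not in the main tests. A replicate block gave 589 genes in iGCB and 31 in naive cells, and 2 neighbours in iGCB cells. With 2 or 3 libraries a group and 6 residual degrees of freedom, small KO effects on neighbours and relatives may be missed. Levels below about 3 counts a group cannot be told from 0.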
